A study of Mus musculus with 16 samples.

Results

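The genes described here are the protein-coding mouse genes named Zfp900 to Zfp999 that lie on an autosome. The rule uses name, biotype and chromosome and no measured value, and 55 genes met it in each of 3 deposited gene tables, of 32826 genes listed in any of the tables. Most of these genes encode proteins with a row of C2H2 zinc fingers behind a KRAB domain. Each finger folds around a zinc ion and contacts a few bases of DNA, so that the row reads a DNA sequence, while the KRAB domain recruits the corepressor TRIM28 and, through it, histone and DNA methylating enzymes. The family has grown in rodents by tandem duplication, and in embryonic stem (ES) cells its best known targets are endogenous retroviruses, among them those that are derepressed when a cluster of these genes on mouse chromosome 4 is deleted.

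RNA came from mouse E14 ES cells, a cell line, grown with serum, leukaemia inhibitory factor and the inhibitors CHIR99021 and PD0325901, in 8 groups of 2 libraries. Newly made RNA was labelled for 15 min with the uridine analogue 4-thiouridine (4sU) and pulled down in AID-Tada3 cells (project 1), AID-Yeats2 and Supt7l-/- cells (project 2) and AID-Zzz3 cells (project 3), each set against WT cells of the same sequencing project, and total RNA was sequenced in WT cells of project 1. Supt7l is a core subunit of the coactivator complex SAGA, Yeats2 and Zzz3 are subunits of the coactivator complex ATAC, and Tada3 is part of the histone acetyltransferase module that both complexes carry. AID marks a protein that carries an auxin-inducible degron. Auxin (IAA) was given for 24 h to every line, also to WT and Supt7l-/-, and removes proteins with such a degron. Each mutant group is 2 clones, whereas WT replicate 1 is the plain line and WT replicate 2 a line that overexpresses Tir1 and BirA, so the spread within WT is a spread between these lines.

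The genes sit in groups along the chromosomes. With genes less than 1 Mb apart counted as 1 run, 14 of the 55 formed a run on chromosome 4 (chr4:145510759-147848366, mm10, a span with 19 protein-coding genes), 10 a run on chromosome 17 (chr17:21567046-22867134), 5 a run on chromosome 2 (chr2:176670522-178078476), 4 a run on chromosome 7 (chr7:42579783-43192109), 3 a run on chromosome 8 and 2 a run on chromosome 13. The other 17 lay alone. In the longest open reading frame of the GENCODE M21 transcripts, 53 of the 55 genes had at least 1 match to the C2H2 finger spacing, with a median of 11 fingers and a maximum of 21, and 50 had a match to the core of the KRAB domain. Zfp956, Zfp974 and Zfp935 had fingers without the KRAB match, and Zfp972 and Zfp957 matched neither.

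Promoters of 42 of the 55 genes, from 250 bases before to 50 bases after the start site, could be taken from RefSeq (GRCm38.p6) within 1000 bases of the gene start. The 6 below are only some of the genes whose 4sU RNA differed between mutants and WT or between mutants. Of these 6, 3 lie in the chromosome 4 run, where Zfp979 sits between Zfp985 and Zfp984. The promoters of Zfp941, Zfp938, Zfp956 and Zfp961, genes also called between mutants, are not shown, and all of them hold CCAAT. Zfp992 and Zfp990 have no promoter among the 42. Capitals mark CCAAT on either strand (on the other strand it reads ATTGG), and no TATAAA was found on either strand in any of the 42.
Zfp982, chr4:147492167-147492466, plus strand: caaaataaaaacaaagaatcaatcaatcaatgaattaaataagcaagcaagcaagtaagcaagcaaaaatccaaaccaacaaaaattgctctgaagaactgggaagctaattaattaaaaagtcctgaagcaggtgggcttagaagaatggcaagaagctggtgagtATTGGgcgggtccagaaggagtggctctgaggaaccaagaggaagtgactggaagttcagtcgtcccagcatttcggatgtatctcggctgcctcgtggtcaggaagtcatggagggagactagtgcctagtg
Zfp985, chr4:147553027-147553326, plus strand: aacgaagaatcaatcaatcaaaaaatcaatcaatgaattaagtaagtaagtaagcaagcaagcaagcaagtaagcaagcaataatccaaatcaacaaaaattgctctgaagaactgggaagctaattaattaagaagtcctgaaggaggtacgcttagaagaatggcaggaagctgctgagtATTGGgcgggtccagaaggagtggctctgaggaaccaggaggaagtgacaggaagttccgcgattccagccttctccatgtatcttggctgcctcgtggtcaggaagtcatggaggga
Zfp984, chr4:147809739-147810038, minus strand: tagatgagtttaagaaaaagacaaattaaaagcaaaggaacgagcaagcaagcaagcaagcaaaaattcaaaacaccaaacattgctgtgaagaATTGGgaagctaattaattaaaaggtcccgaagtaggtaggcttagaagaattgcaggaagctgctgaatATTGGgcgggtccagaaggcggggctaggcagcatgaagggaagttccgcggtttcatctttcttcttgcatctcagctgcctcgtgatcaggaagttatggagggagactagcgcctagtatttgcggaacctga
Zfp951, chr5:104860019-104860318, minus strand: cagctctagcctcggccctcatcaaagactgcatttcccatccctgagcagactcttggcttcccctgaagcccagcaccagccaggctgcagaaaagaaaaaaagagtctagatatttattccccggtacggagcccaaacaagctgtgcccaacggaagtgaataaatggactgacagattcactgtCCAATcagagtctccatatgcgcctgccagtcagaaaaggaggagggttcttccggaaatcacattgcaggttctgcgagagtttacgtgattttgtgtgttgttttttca
Zfp995, chr17:21909877-21910176, minus strand: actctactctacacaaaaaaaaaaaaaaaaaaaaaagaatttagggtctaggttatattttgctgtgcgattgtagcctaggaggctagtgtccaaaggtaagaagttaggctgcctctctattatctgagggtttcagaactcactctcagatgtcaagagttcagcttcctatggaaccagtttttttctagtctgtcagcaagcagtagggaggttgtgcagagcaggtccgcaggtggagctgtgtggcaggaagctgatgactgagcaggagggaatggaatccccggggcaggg
Zfp949, chr9:88547770-88548069, plus strand: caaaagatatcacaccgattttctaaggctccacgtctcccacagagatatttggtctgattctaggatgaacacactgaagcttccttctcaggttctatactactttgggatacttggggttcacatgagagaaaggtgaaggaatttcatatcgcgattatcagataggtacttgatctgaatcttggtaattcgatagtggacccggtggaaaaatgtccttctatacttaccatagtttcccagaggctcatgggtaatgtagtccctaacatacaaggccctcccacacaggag

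The promoters of Zfp982 and Zfp985 were 82.6% identical in a global alignment, those of Zfp982 and Zfp984 73.8% and those of Zfp985 and Zfp984 70.2%. Any pair that joined 1 of these 3 to Zfp951, Zfp995 or Zfp949 was 46.9 to 51.0% identical. Among the 7 promoters of the chromosome 4 run the median pair was 73.8% identical, against 49.6% for pairs that joined this run to the other 35 promoters. CCAAT on either strand was in 31 of the 42 promoters (73.8%), against 37.9% of 27025 promoters of all genes, and TATAAA was in 0 of 42, against 14.2% of all. Near copies, such as the promoters of Zfp970 and Zfp971 (91.9% identical), count separately in these shares, so the 42 are not independent sequences. In Zfp982, Zfp985 and Zfp984 the inverted CCAAT runs on into GCGGG. The letters ATTGGGCGGG, counted on both strands after they were seen in these 3 sequences, were in 7 of the 42 promoters, 5 on chromosome 4 (Zfp979, Zfp980, Zfp982, Zfp984 and Zfp985) and 2 on chromosome 17 (Zfp947 and Zfp994), against 0.133% of all promoters. The promoters of Zfp995 and Zfp949 held neither motif.

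Sequence shared between copies limits what a count can say about 1 gene. Of all 50-base stretches in the transcripts of a gene, a median of 16.8% also occurred in transcripts of another gene, and the share was over 10% in 33 of the 55 genes and over 50% in 12. It was 43% in Zfp992 (mostly with Zfp991), 82.2% in Zfp991, 54.5% in Zfp984, 29.1% in Zfp990, 15.9% in Zfp985, 13.4% in Zfp995 and 11.9% in Zfp982, so their values are uncertain to the extent that reads were dropped or split between copies. It was 1.43% in Zfp951, 0.879% in Zfp961 and 0 in Zfp949.

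Libraries of 4sU RNA held 8268061 to 15994518 counts in mouse genes and the libraries of total RNA 4903998 and 6378707, of which the 55 genes took 0.305 to 0.402% and 0.262 to 0.300%. The RNA of the targeted gene checks the labels only in part, since AID acts on protein. Tada3 was at 12.2 and 10.5 CPM (counts scaled to library size) in AID-Tada3 clones, against 31.3 and 23.9 in WT, Yeats2 at 109 and 188 CPM in AID-Yeats2 clones, against 242 and 256 in WT, and Zzz3 at 288 and 299.8 CPM in AID-Zzz3 clones, against 430.3 and 448 in WT. Supt7l was at 8.87 and 14.1 CPM in Supt7l-/- clones, against 13.9 and 14.3 in WT, so its RNA does not set these clones apart, and the deleted part of the gene is not given in the labels. All 7 ES cell markers found in the tables were detected in every group.

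Summed levels of the marker lists moved with several groups. ES cell markers summed to 1406 to 1443 CPM in AID-Yeats2, 1202 to 1236 in Supt7l-/- and 1324 to 1398 in WT of project 2, while mutants and WT overlapped in projects 1 and 3 (1042 to 1587 CPM). The 8 primitive endoderm markers summed to 16.96 to 20.9 CPM in AID-Yeats2, 18.4 to 23.9 in Supt7l-/- and 12.4 to 13.9 in WT of project 2, and to 19.3 to 19.5 CPM in AID-Zzz3 and 11.7 to 15.0 in WT of project 3, with Foxa2 at 0 in AID-Yeats2 and AID-Zzz3 and Sox17 at 0 in Supt7l-/-. The markers of 2-cell-like cells summed to 3.35 to 4.44 CPM in AID-Yeats2, 8.19 to 10.3 in Supt7l-/- and 2.57 to 3.00 in WT of project 2, and to 3.44 to 4.07 CPM in AID-Zzz3 and 0.934 to 1.195 in WT of project 3. Tcstv3 and Zscan4b were at 0 in AID-Yeats2, and Tcstv3, Usp17ld and Zscan4f in WT of project 2. Duxf3 was at 0 in AID-Zzz3 and Zscan4c in WT of project 3. Only 2 genes of this list had enough reads to be tested in project 2 and 0 in project 3. Trophectoderm markers summed to 33.2 to 36.1 CPM in AID-Tada3 and 27.5 to 27.6 in WT of project 1, and to 28.3 to 31.7 CPM in AID-Yeats2, 34.4 to 35.4 in Supt7l-/- and 29.5 to 31.1 in WT of project 2, with Elf5 at 0 in Supt7l-/- and this WT. Fibroblast markers summed to 0.245 to 0.402 CPM in AID-Tada3 and 0.548 to 1.197 in WT of project 1, and to 1.42 to 11.8 CPM in AID-Yeats2, 2.00 to 2.05 in Supt7l-/- and 7.73 to 7.91 in WT of project 2, with Postn and Thy1 at 0 in Supt7l-/-. In project 3 they summed to 0.840 to 1.44 CPM in AID-Zzz3 and 0.341 to 0.840 in WT. Primitive endoderm and 2-cell-like markers overlapped between AID-Tada3 and WT, and trophectoderm markers between AID-Zzz3 and WT. The part of these cell states in the results was not tested.

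The genes differed widely in new RNA in WT cells. Per kilobase of median transcript length, Zfp985 averaged 423 ± 41 CPM per kb over the 6 WT 4sU libraries (SD, n = 6, 3 projects of 2 lines). Zfp961 followed at 388 ± 23.1 CPM per kb, and the ranges of these 2 genes over the 6 libraries, 397 to 506 and 357 to 418, overlapped. Zfp936 and Zfp990 came next at 203 ± 18.7 and 202 ± 26.1 CPM per kb, also with overlapping ranges, and lay below the first pair in every library. Zfp982, which has been linked to the stem cell state of mouse ES cells, was at 140.3 ± 15.7 CPM per kb and Zfp951 at 134 ± 13.7 CPM per kb, and their ranges overlapped too. The median transcript length in the deposited tables is short for Zfp985 (628 bases) and Zfp961 (701 bases) and long for Zfp990 (1796 bases), and without the division by length Zfp990 led these 6 genes at 363 ± 46.9 CPM, against 266 ± 25.8 for Zfp985.

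The 6 genes highest per kb made up 45.4% of the summed CPM of all 55, not divided by length. The 14 genes of the chromosome 4 run made up 50.4%. Across runs the median gene was at 42.6 CPM per kb on chromosome 4, 34.6 on chromosome 7, 11.8 on chromosome 17, 5.22 on chromosome 2 and 9.86 among the 17 genes that lie alone, and lowest in the runs on chromosomes 13 (1.87, 2 genes) and 8 (0.721, 3 genes). Within a run the levels were far apart: on chromosome 4 they reached from 2.94 CPM per kb (Zfp993) to 423.2 (Zfp985). Of the 55 genes 31 were above 10 CPM per kb and 6 below 1. No gene was at 0 in all 6 libraries, but Zfp957 had at most 1 read in any of them and Zfp935, nearly all of whose sequence also lies in another gene, 2 to 7 reads. Zfp957, Zfp935 and Zfp963 were too low to be tested in any mutant.

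Between WT libraries the levels of a gene were close. Among the 42 genes with at least 50 reads in each of the 6 WT 4sU libraries, the highest library exceeded the lowest by a median factor of 1.36. Zfp959 had the widest range, with a factor of 3.00. The WT line with Tir1/BirA differed from the plain line by a median log2 difference of -0.02 over these 42 genes in project 1, -0.00122 in project 2 and 0.30 in project 3. In project 3 the Zfp900-series genes were therefore higher in 1 WT line than in the other, and both lines are the WT of the comparison with AID-Zzz3.

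**Figure D1:**
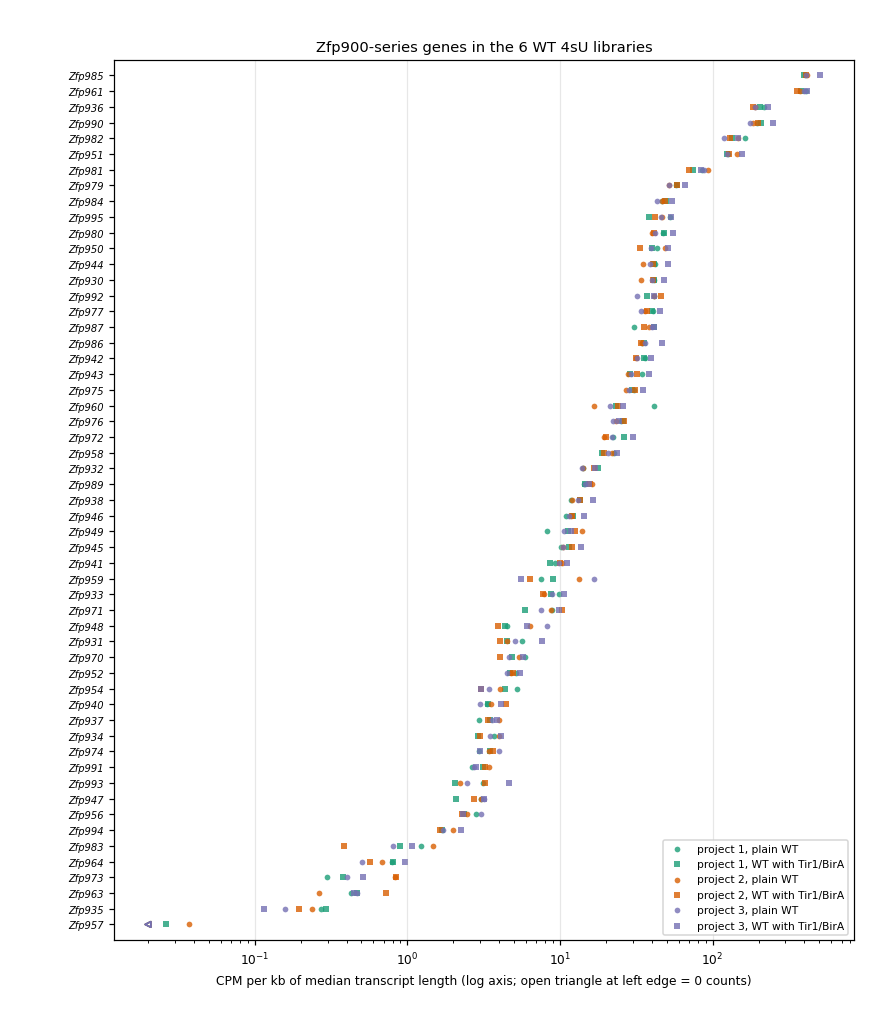
New RNA of the 55 Zfp900-series genes in WT ES cells, in CPM per kb of median transcript length on a log axis. Each point is 1 of the 6 WT 4sU libraries, coloured by project and shaped by WT line, and genes run from Zfp985 at a mean of 423.2 at the top to Zfp957 at the bottom, with 3 pairs of neighbours among the first 6 whose points overlap.

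The comparison of WT 4sU with WT total RNA asks which transcripts weigh more among RNA made in the last 15 min than in the standing pool. More of these genes were higher than lower in new RNA: 23 of the 52 tested were higher and 7 lower in 4sU RNA at an adjusted p under 0.05 (44.2% and 13.5%, edgeR quasi-likelihood test with Benjamini-Hochberg adjustment over 14494 genes), against a background of 30.4% and 33.0% of all genes. This fit does not pair the 4sU and total libraries by WT line, and the counts of a fit that does are given in the last section. The median log2 fold change of the 52 was 0.37, against 0.05 for all genes. Of the 263 numbered Zfp genes outside the 900 series, 49 were higher and 77 lower, with a median of -0.06. Without the first WT total library the median of the 52 was 0.20 and without the first WT 4sU library 0.52, with 19 and 17 genes higher. In bulk libraries like these, fewer cells with a transcript and less of it per cell cannot be told apart.

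The chromosome 4 run held the largest group of genes with more new RNA: 10 of its 14 genes were higher and 1 lower, with a median log2 fold change of 1.02. Zfp992 was at 193 and 175 CPM in WT 4sU RNA, against 58.5 and 54.8 in WT total RNA. Zfp986 was at 26.3 and 27.7 CPM in 4sU RNA, against 8.17 and 8.01 in total RNA. Zfp980 was at 144 and 148 CPM in 4sU RNA, against 54.5 and 59.1 in total RNA. Both 4sU libraries lay far above both total libraries for each of these, with log2 fold changes of 1.70 ± 0.14, 1.74 ± 0.19 and 1.36 ± 0.14 (SE) and adjusted p of 6.42e-05, 0.0002 and 0.000141. Zfp987, Zfp989 and Zfp991 of the same run were higher by 1.89 ± 0.28, 1.41 ± 0.23 and 2.01 ± 0.43, with adjusted p of 0.000838, 0.00128 and 0.00461. Zfp991 had only 7 and 6 reads in the total libraries. Much of the sequence of these genes also lies in other genes. The share of 50-base stretches was 71.3% in Zfp980, 86.4% in Zfp986, 89% in Zfp987 and 67.9% in Zfp989. Their ratios are uncertain to the extent that reads were dropped or split between copies.

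Zfp979, a neighbour in the run that shares the ATTGGGCGGG letters, was lower in 4sU RNA. It was at 128 and 130.2 CPM in 4sU RNA, against 186 and 289 in total RNA, and the total libraries, though both higher, were far apart (log2 fold change -0.88 ± 0.21, adjusted p = 0.00812). Zfp985 and Zfp990, which have among the highest levels in the run, were at 258 and 259 CPM and 359 and 387 CPM in 4sU RNA, against 193 and 250.2 and 312 and 483 in total RNA, and passed no test.

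Outside chromosome 4 the largest ratio was that of Zfp972 on chromosome 2, which matched neither the fingers nor the KRAB domain. It was at 10.7 and 13 CPM in 4sU RNA, against 3.5 and 1.39 in total RNA, on 18 and 9 reads in the total libraries (log2 fold change 2.31 ± 0.41, adjusted p = 0.00198). Zfp934 had 90 and 66 reads in 4sU RNA, against 5 and 15 in total RNA (log2 fold change 1.63 ± 0.45, adjusted p = 0.0151), and its adjusted p was 0.0647 without the first total library and 0.0547 without the first 4sU library.

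The lowest ratio of new to total RNA was that of Zfp954 on chromosome 7. It was at 7.1 and 6.05 CPM in 4sU RNA, against 23.5 and 20.3 in total RNA, with no overlap (log2 fold change -1.73 ± 0.22, adjusted p = 0.00038). Zfp956 on chromosome 6 was at 8.01 and 6.76 CPM in 4sU RNA, against 19.6 and 15.4 in total RNA, and Zfp940 on chromosome 7 at 9.04 and 9.4 CPM in 4sU RNA, against 15.4 and 19.9 in total RNA. Both were lower in 4sU RNA without overlap (log2 fold changes -1.24 ± 0.24 and -0.94 ± 0.23, adjusted p = 0.00303 and 0.00817). Zfp971 and Zfp945 were close to the threshold (adjusted p = 0.0495 and 0.0428): without the second 4sU library Zfp971 had an adjusted p of 0.336 and without the first total library 0.117, and without the second total library Zfp945 had 0.18 and without the first 4sU library 0.146. Zfp963 rested on 10 and 10 reads in 4sU RNA, against 8 and 14 in total RNA (log2 fold change -1.45 ± 0.49, adjusted p = 0.0338), and without the first 4sU, the second 4sU or the second total library its adjusted p was 0.267, 0.221 and 0.199. The DESeq2 test called neither Zfp963 (adjusted p = 0.212) nor Zfp971 (0.0982).

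**Figure D2:**
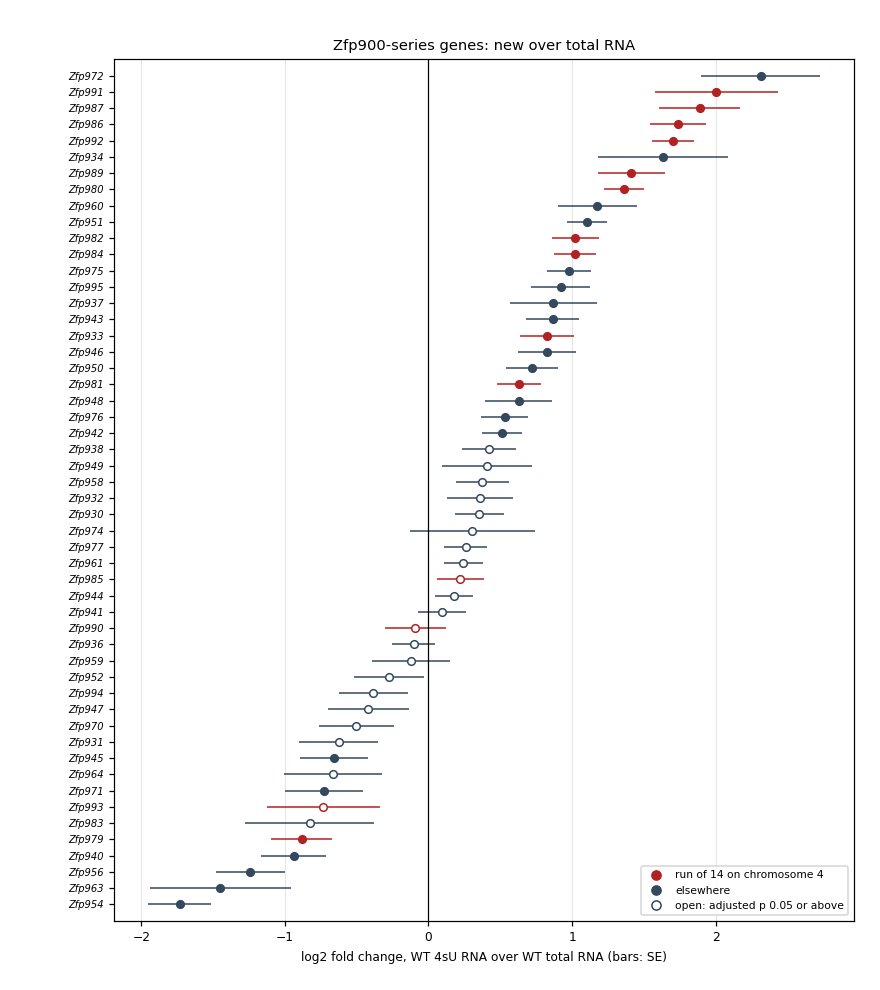
Log2 fold change of WT 4sU RNA over WT total RNA for the 52 Zfp900-series genes tested (2 libraries each), with bars for the SE. Filled points passed an adjusted p of 0.05 and red points belong to the chromosome 4 run, 10 of whose 14 genes are filled on the right, with Zfp979 filled on the left.

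In AID-Yeats2 cells few of these genes changed against WT. Of 52 tested, Zfp995, Zfp992 and Zfp982 rose and Zfp949 fell, against a background of 3.92% of 14513 genes higher and 3.32% lower. The median log2 fold change of the 52 was -0.02, close to that of all genes (-0.000339), and both clones lay above both WT libraries in 19 genes and below both in 9, against 25.4% and 25.8% of all genes.

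Zfp995, in the chromosome 17 run (chr17:21879570-21909926), was at 57.4 and 54.6 CPM in AID-Yeats2 clones, against 39.6 and 35.7 in WT. Zfp992, in the chromosome 4 run (chr4:146449023-146470292), was at 255 and 249 CPM in AID-Yeats2 clones, against 187 and 209 in WT. Zfp982 (chr4:147492417-147513486) was at 229.7 and 222 CPM in AID-Yeats2 clones, against 201 and 177 in WT. In all 3 both clones were above both WT libraries, with log2 fold changes of 0.57 ± 0.10, 0.35 ± 0.07 and 0.26 ± 0.07 and adjusted p of 0.00273, 0.00962 and 0.0493. Zfp949 on chromosome 9 (chr9:88548020-88571061), which shares no 50-base stretch with another gene, was at 14.6 and 13.8 CPM in AID-Yeats2 clones, against 21.6 and 19.3 in WT, with both clones below both WT libraries (log2 fold change -0.53 ± 0.14, adjusted p = 0.0325). Without clone 1 no gene of the 52 passed, with adjusted p of 0.0629 for Zfp995, 0.134 for Zfp992, 0.352 for Zfp982 and 0.204 for Zfp949, and without clone 2 Zfp995 alone did, with 0.067 for Zfp992, 0.176 for Zfp982 and 0.219 for Zfp949. Zfp949 also lost its call without WT replicate 1, and Zfp982 without WT replicate 2. The DESeq2 test also ended the calls of Zfp982 (adjusted p = 0.134) and Zfp949 (0.147).

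In Supt7l-/- cells 0 of 52 genes rose and 2 fell (edgeR, with 9 at an unadjusted p under 0.05, and 0 and 2 by DESeq2), against 1.32% and 2.02% of 14513 genes. The log2 fold change of the 52 had a median of -0.03, against -0.000738 for all genes. The genes that fell were Zfp992 and Zfp951. Zfp992 was at 133 and 127 CPM in Supt7l-/- clones, against 187 and 209 in WT. Zfp951 on chromosome 5 (chr5:104813169-104860070) was at 174 and 210.3 CPM in Supt7l-/- clones, against 278 and 247 in WT. Both clones were below both WT libraries in each gene, with log2 fold changes of -0.61 ± 0.07 and -0.45 ± 0.09 and adjusted p of 0.000819 and 0.0164. Zfp992 passed under all 9 alternatives tried, with an adjusted p of at most 0.0369, whereas Zfp951, whose lower clone was clone 1, had 0.246 without it. Zfp985, next by p, was at 217 and 225 CPM in Supt7l-/- clones, against 262 and 258 in WT, and just missed the threshold (log2 fold change -0.24 ± 0.06, adjusted p = 0.0612), with 0.0112 without WT replicate 1 and 0.0134 without WT replicate 2. The counts depended on which WT line and which clone were in the fit. No call against WT in Supt7l-/- was shared in direction with AID-Yeats2, and these comparisons share their WT libraries.

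The direct comparison of AID-Yeats2 with Supt7l-/- sets an ATAC subunit under a degron, with 24 h of auxin, against a knockout of a SAGA subunit. Which complex is hit and how the protein is lost cannot be told apart here. The comparison called 7 of the 52 genes higher and 4 lower in AID-Yeats2 (13.5% and 7.69%), against 8.95% and 7.32% of 14513 genes. All 5 calls on chromosome 4 were higher in AID-Yeats2, and 12 of the 14 genes of that run had a positive log2 fold change, with a median of 0.24, against 0.04 for the 52 genes and -0.01 for all. Against WT, 12 of the 14 were positive in AID-Yeats2 (median 0.17) and 11 negative in Supt7l-/- (median -0.10). The summed CPM of the 55 genes was 3473 and 3609.6 in AID-Yeats2 clones and 3015 and 3131 in Supt7l-/- clones, with WT between them at 3310.4 and 3280.2. The summed ES cell markers lay in the same order, 3 of the 7 were called higher in AID-Yeats2 than in Supt7l-/- and all 7 had a positive fold change, and their part in these differences was not tested.

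Zfp992 gave the largest difference. It was at 255 and 249 CPM in AID-Yeats2 clones, against 133 and 127 in Supt7l-/- clones, with WT in between and no overlap among the 3 groups (log2 fold change 0.96 ± 0.07, adjusted p = 7.04e-06). Zfp982 was at 229.7 and 222 CPM in AID-Yeats2, against 169.8 and 172 in Supt7l-/-. Zfp985 was at 268 and 275 CPM in AID-Yeats2, against 217 and 225 in Supt7l-/-. Each pair of clones was tightly grouped and the groups did not overlap (log2 fold changes 0.40 ± 0.07 and 0.30 ± 0.06, adjusted p = 0.00244 and 0.0064). Zfp984, whose promoter resembles those of Zfp982 and Zfp985, was at 129.9 and 144 CPM in AID-Yeats2, against 107 and 115 in Supt7l-/- (log2 fold change 0.30 ± 0.08, adjusted p = 0.0195). Promoter likeness did not go with a call throughout the run. Zfp987, Zfp979 and Zfp980, with promoters 89.1, 84.9 and 83.7% identical to that of Zfp982, were not called. Zfp990, at the other end of the run, was at 359 and 392 CPM in AID-Yeats2, against 319 and 318 in Supt7l-/- (log2 fold change 0.24 ± 0.07, adjusted p = 0.0305).

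Away from chromosome 4 only Zfp951 and Zfp961 were higher in AID-Yeats2 by this test. Zfp951 was at 278 and 271 CPM in AID-Yeats2, against 174 and 210.3 in Supt7l-/- (log2 fold change 0.52 ± 0.09, adjusted p = 0.00218). Zfp961 on chromosome 8 was at 261 and 284 CPM in AID-Yeats2, against 218 and 235 in Supt7l-/- (log2 fold change 0.27 ± 0.07, adjusted p = 0.0194). Both share little sequence with other genes.

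The 4 genes that were lower in AID-Yeats2 all lay alone, on chromosomes 6, 7, 9 and 10. Zfp941 was at 21.3 and 22.9 CPM in AID-Yeats2, against 32.6 and 37 in Supt7l-/- (log2 fold change -0.65 ± 0.12, adjusted p = 0.00212). Zfp949 was at 14.6 and 13.8 CPM in AID-Yeats2, against 19.8 and 21.5 in Supt7l-/- (log2 fold change -0.54 ± 0.14, adjusted p = 0.0166). Their groups did not overlap, and the WT libraries of Zfp949, at 21.6 and 19.3 CPM, were near the Supt7l-/- clones. Zfp938 was at 18.7 and 21.2 CPM in AID-Yeats2, against 28.2 and 28.2 in Supt7l-/- (log2 fold change -0.50 ± 0.13, adjusted p = 0.0157), and Zfp956, a low gene with 50 and 49 reads in AID-Yeats2 and 68 and 83 in Supt7l-/-, differed by -0.70 ± 0.21 (adjusted p = 0.0339). The DESeq2 test ended the calls of Zfp961, Zfp984, Zfp990, Zfp938, Zfp949 and Zfp956, and per spike-in RNA only Zfp992 and Zfp941 of the 11 kept theirs. Only Zfp992 kept its call in all 10 alternatives, with an adjusted p of at most 0.0108. Without AID-Yeats2 clone 1 or clone 2 the counts were 3 higher and 0 lower, and 3 and 1, and without Supt7l-/- clone 1 or clone 2 they were 1 and 1, and 3 and 1, where Zfp941 was lost without AID-Yeats2 clone 1 (0.0502) and Zfp982 and Zfp951 without Supt7l-/- clone 1 (0.0542 and 0.0508). Zfp985, Zfp984, Zfp990, Zfp961, Zfp938, Zfp949 and Zfp956 passed in none of these 4 smaller fits, with adjusted p of 0.0518 to 0.268.

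**Figure D3:**
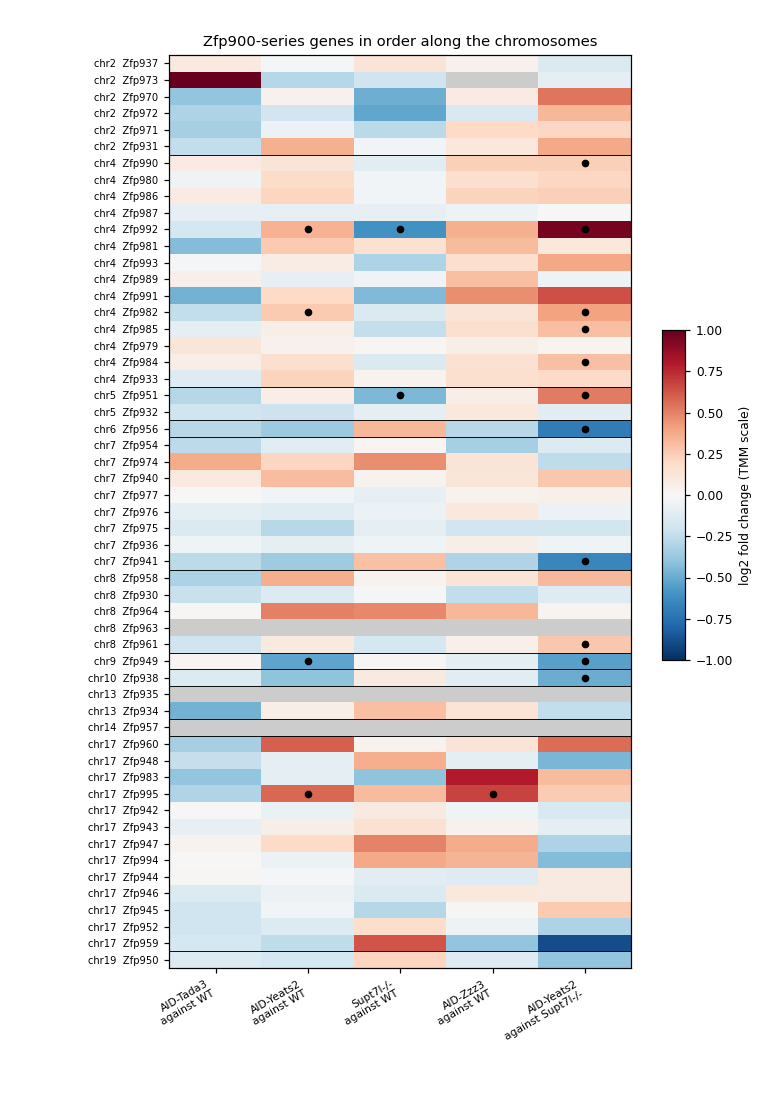
Log2 fold change (TMM scale, colours from -1 in blue to 1 in red) of the 55 Zfp900-series genes, in order along the chromosomes, in 5 comparisons with 2 libraries a group. Dots mark an adjusted p under 0.05 and grey marks genes that were not tested. The last column shows 5 of the 11 dots, all red, within the chromosome 4 run.

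In AID-Zzz3 cells 1 of 51 genes rose and none fell (edgeR, with 2 at an unadjusted p under 0.05, and 1 and 0 by DESeq2), against 0.681% and 0.303% of 14529 genes. The gene that rose was Zfp995, which was also called in AID-Yeats2, the other ATAC subunit, and was the only gene of the set called the same way in more than 1 mutant. Zfp995 was at 67.9 and 65.8 CPM in AID-Zzz3 clones, against 38.6 and 45.1 in WT. Both clones were above both WT libraries (log2 fold change 0.68 ± 0.12, adjusted p = 0.0487), but the adjusted p was 0.301 without clone 1, 0.147 without clone 2 and 0.0716 without WT replicate 1, 0.0514 with DESeq2 size factors and 0.0512 with the minimum of 50 counts. In the other mutants Zfp995 was at 47.5 and 46.3 CPM in Supt7l-/- clones, against 39.6 and 35.7 in WT (log2 fold change 0.32 ± 0.10, adjusted p = 0.104, with 0.0114 without WT replicate 1), and at 28.9 and 33.5 CPM in AID-Tada3 clones, against 44.3 and 32.6 in WT (log2 fold change -0.30 ± 0.15, adjusted p = 0.643, with 0.000853 without WT replicate 2).

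Next by p came Zfp992, at 228 and 196 CPM in AID-Zzz3 clones, against 145 and 187 in WT (log2 fold change 0.35 ± 0.14, adjusted p = 0.355), and Zfp981, at 368 and 268 CPM in AID-Zzz3 clones, against 261 and 249.5 in WT (log2 fold change 0.32 ± 0.15, adjusted p = 0.424). Neither passed the test, and for Zfp992 the adjusted p was 0.0224 without WT replicate 2. In the chromosome 4 run 13 of 14 genes had a positive log2 fold change, with a median of 0.16, and over the 51 genes the median was 0.10, against 0.00294 for all genes. These medians move with the WT line: over the genes tested the median was -0.03 without WT replicate 1 and 0.24 without WT replicate 2. The summed CPM of the 55 genes was 3978 and 3721 in AID-Zzz3 clones, against 3194 and 3880.3 in WT.

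In AID-Tada3 cells none of 52 genes passed (edgeR, with 6 at an unadjusted p under 0.05, and 0 by DESeq2), in a comparison that called 0.0331% of 15099 genes, 0 higher and 5 lower. The fold changes of the 52 genes lay lower than those of all genes, with 36 negative and 16 positive and a median log2 fold change of -0.14, against -0.00457 for all genes and -0.03 for 266 other numbered Zfp genes. Both clones lay below both WT libraries in 24 of the 52 and above both in 4, against 20.3% and 19.3% of all genes. The 3 genes with the smallest p were Zfp981, Zfp951 and Zfp958. Zfp981 was at 170.2 and 178 CPM in AID-Tada3 clones, against 251 and 219 in WT. Zfp951 was at 190.3 and 204 CPM in AID-Tada3 clones, against 242 and 238 in WT. Zfp958 was at 30 and 32.6 CPM in AID-Tada3 clones, against 42.6 and 35.3 in WT. No group overlapped in these 3, with log2 fold changes of -0.44 ± 0.09, -0.28 ± 0.08 and -0.31 ± 0.12 and adjusted p of 0.407, 0.473 and 0.565. Over the 9 alternatives tried, the log2 fold change ran from -0.60 to -0.33 in Zfp981 and from -0.44 to -0.23 in Zfp951. In Zfp958 it ran from -0.48 to -0.17, and in Zfp995 from -0.49 to -0.06. Which genes passed depended on which WT line was in the fit.

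**Figure D4:**
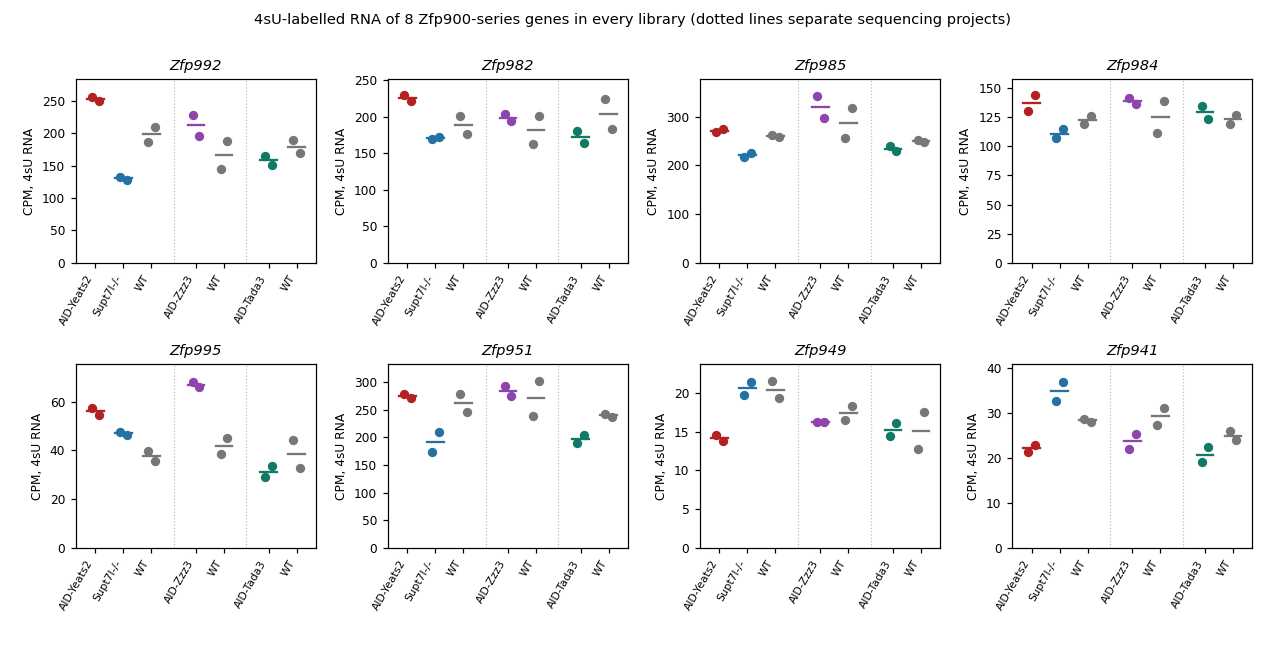
CPM of 4sU RNA of 8 Zfp900-series genes in every 4sU library (points, 2 a group, with a line at the mean), mutants left of WT within each project and dotted lines between projects. In Zfp992 the AID-Yeats2 clones lie above and the Supt7l-/- clones below the WT libraries, and in Zfp995 the AID-Yeats2 and AID-Zzz3 clones lie above the WT libraries of their project.

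All values, unless the spike-in is named, are relative to the mouse RNA of each library. Per labelled spike-in RNA, the middle of all mouse genes was lower in every mutant: the log2 shift against WT was -0.16 in AID-Tada3, -0.50 in AID-Yeats2, -0.37 in Supt7l-/- and -0.36 in AID-Zzz3, and -0.13 for AID-Yeats2 against Supt7l-/-. On that scale no gene of the set was higher in any mutant against WT, and 2 were lower in AID-Tada3, 9 in AID-Yeats2, 2 in Supt7l-/- and 8 in AID-Zzz3. The share of all genes lower in these fits is not given here, so these counts do not set the genes apart from others. The positive fold changes of Zfp982 and Zfp992 in AID-Yeats2 and of Zfp992 and Zfp981 in AID-Zzz3 turned negative. The authors' deposited table is scaled to the spike-in. There every gene of the chromosome 4 run had a negative log2 fold change against WT in AID-Yeats2. In AID-Zzz3 every gene of the run but Zfp991 (0.06) was negative. The direction of this run against WT thus depends on the scale. The authors' table gives 0 of the 55 genes with an adjusted p under 0.05 in AID-Tada3. In AID-Yeats2 it gives 13 of 42 genes with an adjusted p lower and 0 higher, against 48.9% and 0.369% of all its genes, in Supt7l-/- 3 of 38 lower (Zfp985, Zfp992 and Zfp951) and 0 higher, against 8.86% and 0.0476%, and in AID-Zzz3 5 of 41 lower and 0 higher, against 35.7% and 0.845%.

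The partners of these proteins were looked at through a list of 24 corepressor genes, all of which were tested. The list held 25 names, since Resf1 and 2810474O19Rik are the same gene. In AID-Yeats2 3 rose and 3 fell (12.5% each, against 3.92% and 3.32% of all genes), with a median log2 fold change of -0.02 (all genes -0.000339), led by 2810474O19Rik (also called Resf1, a factor of retroelement silencing), which rose by 0.42 ± 0.06, adjusted p = 0.00127 (log2), and Dnmt1, the maintenance DNA methyltransferase, which changed by -0.49 ± 0.08, adjusted p = 0.00134. Per spike-in RNA none of the 24 rose and 9 fell in AID-Yeats2, and 2810474O19Rik was at -0.0759 (adjusted p = 0.798), while Dnmt1 was still called at -0.98. The middle of all mouse genes shifted by -0.50 (log2) on that scale. The share of all genes that fell in that fit is not given here, so the 9 are no result about this list. In Supt7l-/- 0 rose and 1 fell (4.17%, against 2.02% of all genes lower), Uhrf1, the partner that guides Dnmt1 to replicated DNA, with a log2 fold change of -0.50 ± 0.09, adjusted p = 0.00926, which was 0.189 without clone 1 and 0.0938 without clone 2. AID-Tada3 and AID-Zzz3 had no call on this list (edgeR, with 2 and 4 genes at an unadjusted p under 0.05, and none by DESeq2). Between AID-Yeats2 and Supt7l-/- 8 of the 24 were higher and 2 lower in AID-Yeats2 (33.3% and 8.33%, against 8.95% and 7.32% of all genes), with a median of 0.02 (all genes -0.01), and none was called in either direction per spike-in RNA (edgeR, 1 at an unadjusted p under 0.05). Trim28 itself, which the KRAB domain binds, was at 208 and 196 CPM in AID-Yeats2, against 154 and 151 in Supt7l-/- (log2 fold change 0.40 ± 0.08, adjusted p = 0.00351), and lost its call without AID-Yeats2 clone 1 (0.0647), Supt7l-/- clone 1 (0.0528) or Supt7l-/- clone 2 (0.0719). In WT 4sU RNA, 6 of the 24 corepressor genes were higher and 12 lower than in total RNA (25% and 50%, against 30.4% and 33.0% of all genes), with a median of -0.48 (all genes 0.05), and Trim28 was at 203 and 209 CPM in 4sU RNA, against 2593 and 2226 in total RNA.

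A further list held 9 tested zinc finger genes with well studied targets, among them Yy1 and Ctcf, which are not repressors alone. Of these, Zfp809, which silences proviruses that use a proline primer, rose in AID-Yeats2 (log2 fold change 0.32 ± 0.08, adjusted p = 0.0292), and Zfp42, a marker of naive ES cells, fell in Supt7l-/- (log2 fold change -0.25 ± 0.06, adjusted p = 0.0431), the only calls on this list between a mutant and WT. Per spike-in RNA Zfp809 was at -0.17 (adjusted p = 0.551) and Zfp42 at -0.61 (0.0897). The DESeq2 test ended both calls (0.103 and 0.107), as did leaving out either clone of the mutant. Zfp42, Zfp568 and Zfp57, which protects imprints, were higher in AID-Yeats2 than in Supt7l-/- (log2 fold changes 0.33 ± 0.06, 0.26 ± 0.07 and 0.29 ± 0.08, adjusted p = 0.00296, 0.0154 and 0.0214), and none of the 3 was called per spike-in RNA (0.698, 0.83 and 0.771). Each lost its call without at least 1 clone: Zfp42 without AID-Yeats2 clone 2 or either Supt7l-/- clone, Zfp568 without any 1 of the 4 clones, and Zfp57 without AID-Yeats2 clone 2 or either Supt7l-/- clone, and Zfp57 also with the DESeq2 test. Project 2 tested 261 numbered Zfp genes outside the 900 series. Of these, 2 rose and 14 fell in AID-Yeats2 (0.766% and 5.36%, against 3.92% and 3.32% of all genes). In Supt7l-/- 0 rose and 2 fell, Zfp42 among them (0% and 0.766%, against 1.32% and 2.02% of all genes). Between these mutants 11 were higher and 18 lower in AID-Yeats2 than in Supt7l-/- (4.21% and 6.90%, against 8.95% and 7.32% of all genes).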

How the data were processed

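The authors deposited raw read counts per Ensembl gene and per spike-in gene, a normalized signal, the median transcript length, and log2 fold changes with p-values. Dividing the raw counts by 1 size factor per library gave the deposited signal. The submitters' processing notes name mm10, the aligners STAR 2.5.3a and Bowtie2 2.2.8, the counter HTSeq 0.6.1p1, and DESeq2 1.16.1. How reads that match several genes were counted, and whether strand was used, is not given in the sources used here. Per the labels' protocols, ribosomal RNA was removed from total RNA but not from 4sU RNA.

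Raw counts were fitted with edgeR 4.0.16 (robust quasi-likelihood test, TMM scaling, filterByExpr with a minimum count of 10, Benjamini-Hochberg adjustment over all genes tested, threshold 0.05). Fits used the 4 4sU libraries of project 1, all 6 of project 2, the 4 of project 3, and the 4 WT libraries of project 1. CPM are counts scaled to the TMM library size of that fit, so CPM of WT 4sU RNA differ slightly between the fit with total RNA and the fit with AID-Tada3. Fold changes are given with their SE. Counts limit the precision of genes with few reads. The fitting script was tested on simulated data.

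Named genes are the 6 highest per kb in WT 4sU RNA, up to 8 genes per direction and comparison by size among those that passed, the 3 with the smallest p where fewer than 3 passed, and genes called alike in several mutants. Of the lists, at most 4 called genes were eligible per comparison. The members and lists were chosen with earlier results of these data known. Pairing was checked as the correlation of deviations from group means between same-numbered libraries. WT 4sU and total libraries with the same number come from the same line per the labels, and their r over 14494 genes was 0.457. Alternatives were DESeq2 1.42.0 as test and as scaling, spike-in scaling, no filter, a minimum of 50 counts, each library left out, and a replicate block. Promoters come from RefSeq, and the annotation (GENCODE M21) gave the deposited span in 52 of 55 genes. Fingers and KRAB domains were matched by pattern in open reading frames, without a protein table. The p-values measure the spread between 2 clones or 2 WT lines a group.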

Additional observations from a re-analysis of the deposited data

Results flagged for a closer look

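Zfp992 moved in opposite directions against the same WT libraries in AID-Yeats2 and in Supt7l-/- (log2 fold changes 0.35 ± 0.07 and -0.61 ± 0.07, SE, 2 clones each), and the difference between these mutants was itself past the threshold (0.96 ± 0.07, edgeR adjusted p = 7.04e-06, higher in 2 of 2 AID-Yeats2 clones). It shares 43% of its 50-base stretches with other genes, mostly Zfp991. Zfp991 was counted at 3 ± 0.308 CPM per kb in WT 4sU RNA. Since 82.2% of its own stretches are shared, this count cannot show how much Zfp991 RNA bears on Zfp992. Per spike-in RNA the fold change of Zfp992 in AID-Yeats2 against WT was -0.15 (adjusted p = 0.610), while that against Supt7l-/- was still called.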

How the results depend on the processing

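Counts of genes called higher and lower moved by over 1.5 times as follows. With spike-in scaling there were 2 lower in AID-Tada3, 0 higher and 9 lower in AID-Yeats2, 0 higher and 8 lower in AID-Zzz3, and 1 higher and 2 lower in AID-Yeats2 against Supt7l-/-. With no filter there were 1 lower in AID-Tada3, 6 higher and 2 lower in AID-Yeats2, 1 higher in Supt7l-/- and 7 lower in AID-Yeats2 against Supt7l-/-. The DESeq2 test gave 0 lower in AID-Yeats2 and 1 lower in AID-Yeats2 against Supt7l-/-. DESeq2 size factors and the minimum of 50 counts each gave 0 higher in AID-Zzz3. The cause was not tested. All counts in this section are of the set alone, without the share of all genes called in each alternative. Leaving out 1 library at a time gave 0 to 8 lower in AID-Tada3, 0 to 6 higher and 0 to 3 lower in AID-Yeats2, 0 to 5 higher and 1 to 4 lower in Supt7l-/-, 0 to 3 higher and 0 to 1 lower in AID-Zzz3, 1 to 3 higher and 0 to 1 lower in AID-Yeats2 against Supt7l-/-, and 17 to 22 higher and 5 to 7 lower in WT 4sU against total RNA; a group left with 1 library is assumed to vary like the others. With a replicate block, AID-Yeats2 against Supt7l-/- had 13 higher and 8 lower; clone numbers share only a number there (r of same-numbered deviations 0.0261 over 14222 genes). With the block, where the line pairs the libraries, WT 4sU against total RNA had 26 higher and 8 lower, within that margin. Spike-in scaling reversed Zfp982 (-0.24) and Zfp992 (-0.15) in AID-Yeats2, with 2810474O19Rik (-0.0759), Atf7ip2 (-0.21) and Zfp809 (-0.17) of the lists, Zfp995 (-0.0443) in Supt7l-/-, and Zfp981 (-0.0499) and Zfp992 (-0.00364) in AID-Zzz3. It was not run for total RNA.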
